A study of Homo sapiens with 18 samples.

Results

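The effect of exogenous oleate on OVCAR5 cells whose stearoyl-CoA desaturase-1 (SCD1) was blocked was measured by comparing 3 samples given oleate together with the SCD1 inhibitor CAY10566 with 3 samples given CAY10566 alone, 6 of the 18 RNA sequencing samples of the study. OVCAR5 is a human ovarian cancer cell line, and every sample is a culture of this line. The oleate samples received 50 µM oleate, both groups received 1 µM CAY10566, and RNA was taken after 24 h in medium with 5% fatty acid-free BSA. The other 12 samples received no fatty acid, stearate or oleate, with DMSO in place of CAY10566 or, for stearate, with either; those given DMSO, oleate with DMSO, and stearate with CAY10566 are used below for comparison. Replicates are numbered 1 to 3 in each group, and since all come from 1 cell line, p-values measure only the spread between cultures.

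SCD1 places the double bond that turns stearate into oleate, so cells given CAY10566 depend more on oleate from the medium. Sterols are known to restrain SREBP-1 and SREBP-2, membrane-bound transcription factors that are released from the endoplasmic reticulum (ER) when lipids are scarce. Unsaturated fatty acids are known to restrain mainly SREBP-1. INSIG proteins hold the SREBP escort SCAP in the ER, and the SREBPs drive the genes of fatty acid synthesis, desaturation and cholesterol synthesis, SCD and INSIG1 among them. Oleate is also known to be stored in lipid droplets, to be burned in mitochondria, and to relieve the ER stress that saturated fatty acids cause.

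Transcripts of the SREBP pathway had lower values in the cells that received oleate on top of the SCD1 inhibitor, and made up 6 of the 10 genes with lower values and the smallest p (3 of 10 without CAY10566 replicate 3, described below). SCD itself had values of 185.27, 174.41 and 207.15 TPM, transcript counts scaled by length and library total, in CAY10566 replicates 1 to 3, and 113.87, 128.42 and 115.64 TPM in the oleate+CAY10566 samples. INSIG1, an ER protein that retains SCAP, had 66.54, 61.98 and 71.62 TPM in the controls against 43.63, 45.33 and 42.93 TPM with oleate. The groups did not overlap for either gene, and the ratio of the mean TPM was 0.631 for SCD and 0.659 for INSIG1. Single genes did not pass the test after correction: of 13750 genes tested with limma with Benjamini-Hochberg adjusted p under 0.05 and an absolute log2 fold change over 0.32, 0 were called (0.00%), and the adjusted p was 0.172 for both SCD and INSIG1, which ranked 1 and 2 of all genes by p, and 12 and 10 without CAY10566 replicate 3.

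In the whole comparison, 1039 genes (7.56%) had an unadjusted p under 0.05, 833 of them higher with oleate (6.06%) and 206 lower (1.50%). Differences are given as log2 fold changes on the log2(TPM + 1) scale, oleate+CAY10566 minus CAY10566, which understates the change of low genes. The median over all tested genes was 0.07, and it was 0.00 when the samples were rescaled by median-of-ratios size factors. With that rescaling 358 genes (2.60%) were higher and 533 (3.88%) lower at an unadjusted p under 0.05, and SCD and INSIG1 were then called, both with an adjusted p of 0.0141. An exact permutation test of 3 against 3 samples cannot give a two-sided p below 0.1 for any single gene.

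CAY10566 replicate 3 stood apart from the other controls. Its correlation across genes with CAY10566 replicates 1 and 2 was 0.981 and 0.982, against 0.985 between those replicates, and 0.984 to 0.985 with the oleate+CAY10566 samples. On the first principal component of the 6 samples (29.9% of the variance) it scored 13.98, while CAY10566 replicates 1 and 2 scored -20.17 and -22.68 and the oleate samples lay between 1.26 and 17.34. Longer transcripts had higher relative values in it: the slope per doubling of transcript length was 0.054, against -0.007 and -0.015 in the other controls and 0.023 to 0.049 with oleate. For 64.7% of all tested genes its value was nearer to the oleate mean than to the mean of the other controls. List counts are therefore given also without this sample. Over all genes 2793 (20.3%) then had an unadjusted p under 0.05, 2453 higher (17.8%) and 340 lower (2.47%), and 3 were called (0.0218%), TMEM167AP2 higher (0.00727%) and SEPTIN14P8 and the unnamed ENSG00000267729 lower (0.0145%). Both lower features were listed at 0 in every oleate sample and passed the filter only through the controls, and SEPTIN14P8 was also listed at 0 in the left-out CAY10566 replicate 3. TMEM167AP2 and SEPTIN14P8 are pseudogenes, whose reads can be shared with their parent genes.

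**Figure D1:**
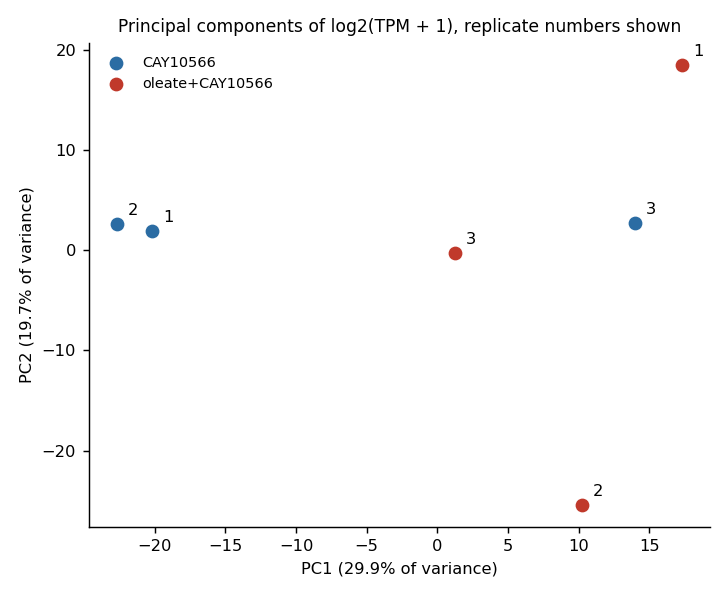
Principal components of log2(TPM + 1) over the 6 samples, with the score on PC1 on the horizontal axis and on PC2 on the vertical axis; each point is a sample, numbered by replicate. CAY10566 replicates 1 and 2 lie at -20.17 and -22.68 on PC1, and replicate 3 at 13.98, among the oleate+CAY10566 samples.

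The cells carried the markers of an epithelial line. All 13 epithelial markers had a median over the 18 samples of at least 1 TPM, EPCAM at 311.44 to 353.22 TPM. Of 8 markers of serous ovarian carcinoma 4 were under 1 TPM, WT1 and SOX17 among them. PAX8 was at 7.64 to 16.93 TPM and WFDC2 at 105.17 to 163.78 TPM. Of 10 markers of gastrointestinal epithelium 4 reached a median of 1 TPM, CDX2 (2.5 to 5.55 TPM in the 18 samples), KRT20, CEACAM6 and MUC2. A median of 10 TPM was reached by 2 of the serous markers and 0 of the gastrointestinal ones. The origin of the line was not tested. Fibroblast markers were under 1 TPM in 8 of 9, leukocyte markers in 7 of 8 with CD68 as the exception, and endothelial markers in 6 of 6; the summed fibroblast markers ranged from 4.48 to 6.95 TPM in the controls and from 4.20 to 7.64 TPM with oleate. The summed endothelial markers did not overlap, at 1.42 to 1.92 TPM against 2.24 to 2.68 TPM, with each marker at a median under 1 TPM. Summed epithelial markers did not overlap either, at 3556.7 to 3624.98 TPM in the controls against 3195.74 to 3547.8 TPM with oleate. The part of either sum in the results was not tested.

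Cholesterol synthesis genes had lower values at many steps. Of its 20 genes, all tested, 10 had an unadjusted p under 0.05 and were lower with oleate, and 0 were higher, against 1.50% lower and 6.06% higher among all genes. In 12 of the 20 every oleate sample was below every control, against 2.74% of all genes, and the estimate was negative in 19 of 20, with a median of -0.22 against 0.07 over all genes. The 10 genes span the pathway from mevalonate to cholesterol: MVK and MVD, the mevalonate kinase and decarboxylase; IDI1 and FDPS, which make the isoprenoid precursors; FDFT1 and SQLE, which commit them to sterols; and MSMO1, HSD17B7, EBP and DHCR7, which modify the sterol itself. Of these, MVK, DHCR7 and MSMO1 were named by a rule of size and the others were chosen after their values were seen.

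FDPS, which makes farnesyl diphosphate, had 209.95, 208.39 and 205.34 TPM in the controls and 169.76, 168.06 and 166.79 TPM with oleate (log2 fold change -0.30 ± 0.04 SE, adjusted p = 0.237). DHCR7, the last enzyme of the pathway, had 85.85, 91.29 and 94.18 TPM against 63.19, 70.07 and 70.17 TPM (-0.41 ± 0.07, adjusted p = 0.349). In both genes the groups were separated by more than the spread within either of them. IDI1, which isomerises isopentenyl diphosphate, had 92.66, 89.99 and 96.41 TPM against 72.86, 74.35 and 65.65 TPM, and MVK had 16.7, 17.18 and 18.66 TPM against 13.25, 12.47 and 12.63 TPM. Not every step passed that limit: HMGCS1, which makes HMG-CoA early in the pathway, differed by -0.21 with an interval of -0.51 to 0.10.

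**Figure D2:**
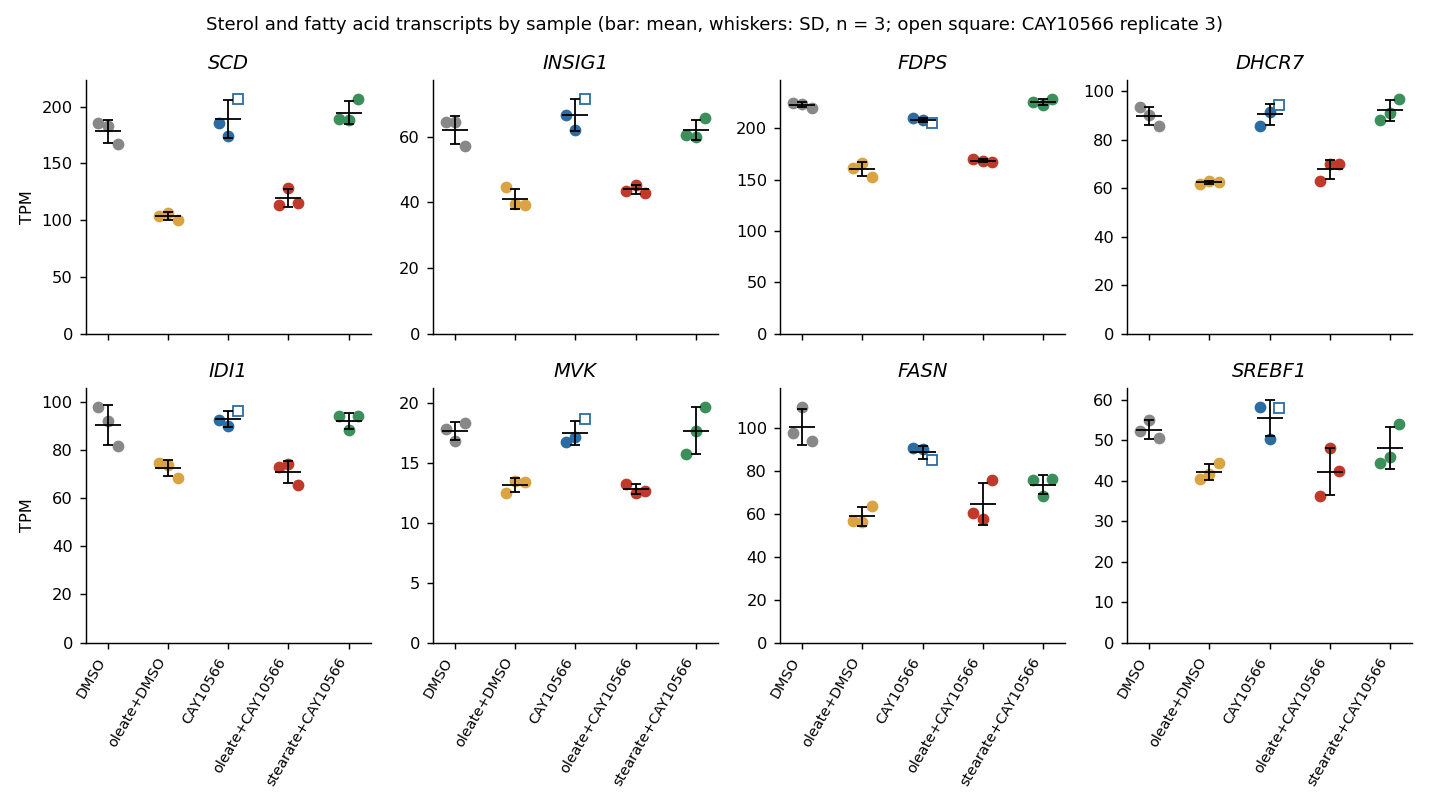
TPM (vertical axis, from 0) of 8 sterol and fatty acid genes in the samples of 5 conditions; points are samples, horizontal bars the mean and whiskers the SD (n = 3), and the open square is CAY10566 replicate 3. In SCD the oleate+CAY10566 samples lie between 113.87 and 128.42 TPM and the CAY10566 samples between 174.41 and 207.15 TPM.

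The sterol genes did not share the position of CAY10566 replicate 3. Its value was nearer to the oleate mean in 4 of the 20 cholesterol genes, against 64.7% of all genes, and its SCD and INSIG1 values were the highest of the controls. Without this sample, 10 of the 20 genes were still lower at an unadjusted p under 0.05 (background 2.47%) and 12 did not overlap (6.42% of all genes). The median moved from -0.22 to -0.14, and the estimates were -0.59 for SCD and -0.54 for INSIG1, each with an adjusted p of 0.0771.

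Fatty acid synthesis genes gave a smaller share. Of 24 genes listed for synthesis, elongation and desaturation 19 were tested, of which 5 were lower and 1 higher at an unadjusted p under 0.05, against 1.50% and 6.06% of all genes, and 6 were lower and 0 higher without CAY10566 replicate 3 (2.47% and 17.8%). FASN, the fatty acid synthase, had 90.49, 89.99 and 84.72 TPM in the controls and 60.21, 57.59 and 75.7 TPM with oleate; the third oleate sample lay nearest to the controls, and the groups did not overlap (-0.46 ± 0.10, adjusted p = 0.599). SLC25A1, the citrate carrier that exports the carbon for synthesis, had 123 ± 5.05 against 99.1 ± 5.54 TPM. The malic enzyme ME1, which supplies NADPH, and the acetyl-CoA synthetase ACSS2 were the other lower genes, at -0.24 and -0.22. HACD3, a dehydratase of the elongation cycle, was the higher gene at 0.17. The carboxylase ACACA and the lyase ACLY, both also SREBP targets, differed by 0.02 (interval -0.32 to 0.36) and 0.01 (interval -0.17 to 0.19).

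Among 16 tested genes of SREBP regulation and cholesterol uptake or export, 3 were lower and 0 higher at an unadjusted p under 0.05, against 1.50% and 6.06% of all genes: INSIG1, SREBF1 and NPC1, the last a lysosomal cholesterol transporter. When CAY10566 replicate 3 was left out, 2 were lower, INSIG1 and SREBF1, and 1 higher, the SREBP protease MBTPS1 (0.19), while NPC1 was at -0.16 (interval -0.33 to 0.01). SREBF1, which encodes SREBP-1, had 58.19, 50.38 and 57.9 TPM in the controls and 36.34, 48.15 and 42.31 TPM with oleate (-0.39 ± 0.11, adjusted p = 0.613). The 3 lists together held 55 tested genes, 0.4% of all, and 18 of them (32.7%) were lower at an unadjusted p under 0.05, against 1.50% of all genes; without CAY10566 replicate 3 the number was again 18, of which 17 were shared. Of the 10, 20 and 50 genes with lower values and the smallest p, 6, 10 and 14 belonged to these lists, and 3, 4 and 10 did without CAY10566 replicate 3. After rescaling by size factors 30 of the 55 were lower, against 3.88% of all genes.

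A fit that shared 1 estimate of the spread over all 6 conditions called 13 of 13750 genes. Without CAY10566 replicate 3 the same model called 400, 375 higher and 25 lower, and the lists those 25 belong to are not given here. Of the 13, all 5 that fell were sterol or fatty acid genes: SCD and INSIG1 (both adjusted p = 0.00215), DHCR7 (0.00317), IDI1 (0.0246) and MVK (0.0468). The 8 that rose were B4GALT5, a galactosyltransferase, PTX3, a secreted pentraxin, PAPOLG, a poly(A) polymerase, PMS2CL, PWP2, RND3, TNFSF18 and RAD51B, a recombination factor. B4GALT5 had 50.27, 47.61 and 57.64 TPM against 74.2, 74.41 and 69.23 TPM, and PTX3 had 111.34, 115.59 and 118.93 TPM against 138.55, 158.62 and 153.61 TPM. In each of the 13 the groups did not overlap. PWP2 had 1.19, 0.54 and 0.18 TPM in the controls and 3.42, 2.59 and 2.1 TPM with oleate, and passed the mean of 1 TPM only through the oleate samples; for PMS2CL, a relative of PMS2, the reads may be shared with its near copies.

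The promoters of the leading genes were read to show the sequence from which these transcripts start. SCD lies on chromosome 10 (100347233 to 100364826, GRCh38), INSIG1 on chromosome 7 (155297776 to 155310235), FDPS on chromosome 1 (155308748 to 155320666) and DHCR7 on chromosome 11 (71428193 to 71452868). The windows run 5′ to 3′ on the strand of the gene from 250 bases before to 50 bases after a RefSeq start in GRCh38.p14, at chr10:100346983-100347282 (plus strand), chr7:155297628-155297927 (plus), chr1:155308616-155308915 (plus) and chr11:71448344-71448643 (minus, the first of 2 DHCR7 windows). Capitals mark CCAAT, the box bound by NF-Y, GGGCGG, the core of the GC box bound by Sp1, and CACGTG, an E-box, read on either strand; matches may overlap.
SCD: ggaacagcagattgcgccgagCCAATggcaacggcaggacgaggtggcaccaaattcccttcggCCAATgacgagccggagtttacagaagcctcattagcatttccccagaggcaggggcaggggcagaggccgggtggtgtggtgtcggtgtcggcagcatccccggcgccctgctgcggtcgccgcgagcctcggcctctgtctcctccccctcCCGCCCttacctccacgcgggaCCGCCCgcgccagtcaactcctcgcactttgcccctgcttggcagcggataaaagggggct
INSIG1: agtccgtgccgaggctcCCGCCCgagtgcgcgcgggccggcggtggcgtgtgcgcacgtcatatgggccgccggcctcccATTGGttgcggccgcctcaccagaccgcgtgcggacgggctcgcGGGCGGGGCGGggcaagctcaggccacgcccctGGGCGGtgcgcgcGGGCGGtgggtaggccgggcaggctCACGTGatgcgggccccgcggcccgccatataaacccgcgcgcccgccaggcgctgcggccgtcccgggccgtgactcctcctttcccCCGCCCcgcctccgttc
FDPS: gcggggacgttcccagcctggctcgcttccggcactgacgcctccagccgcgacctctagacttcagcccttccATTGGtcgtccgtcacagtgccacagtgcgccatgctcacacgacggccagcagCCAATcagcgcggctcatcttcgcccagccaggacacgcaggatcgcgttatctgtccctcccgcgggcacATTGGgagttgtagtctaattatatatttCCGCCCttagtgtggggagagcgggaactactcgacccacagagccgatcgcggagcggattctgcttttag
DHCR7: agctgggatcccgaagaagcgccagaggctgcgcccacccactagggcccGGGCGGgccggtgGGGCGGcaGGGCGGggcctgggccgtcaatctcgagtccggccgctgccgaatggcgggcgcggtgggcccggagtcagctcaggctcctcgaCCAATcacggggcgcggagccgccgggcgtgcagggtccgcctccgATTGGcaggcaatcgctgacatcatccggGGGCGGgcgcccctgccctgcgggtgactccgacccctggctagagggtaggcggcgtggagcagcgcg
The SCD window held 2 CCAAT and 2 GGGCGG matches, and INSIG1 1 CCAAT, 6 GGGCGG and 1 CACGTG. FDPS had 3 CCAAT and 1 GGGCGG, and the printed DHCR7 window 2 CCAAT and 4 GGGCGG. The second DHCR7 window held 0 of each. Of the 18 lower genes 15 had RefSeq windows, 19 in all; FASN, FDFT1 and SQLE had none. CCAAT was found on either strand in 13 of the 19 windows (68.4%), against 34.6% of 35116 windows of all genes and 34.7% of the windows of tested genes. Among the other members of the 3 lists 25 of 44 windows (56.8%) held it. GGGCGG was in 18 of 19 (94.7%), against 45.0% of all windows and 66.7% of those of tested genes and 36 of 44 (81.8%) among the other members, and CACGTG in 1 of 19, against 7.26% of all windows, 9.51% of those of tested genes and 5 of 44 (11.4%) among the other members. TCACNCCAC, a form of the sterol regulatory element, was in 0 of the 19, in 2 of 44 (4.55%) among the other members and in 1.13% of all windows; its absence says only that these letters are absent from these 300 bases.

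The same genes were compared between oleate and no fatty acid in cells given DMSO, samples that the comparison above did not use. There oleate called 1984 genes, 1866 that rose (13.6%) and 118 that fell (0.857%), and 12 of 56 tested genes of the 3 lists fell while 2 rose. With size factors the calls for oleate+DMSO against DMSO were 824 higher and 376 lower. SCD fell from 179 ± 10.1 to 103 ± 3.46 TPM (log2 fold change -0.78, adjusted p = 0.00106) and INSIG1 from 62.0 ± 4.26 to 41.1 ± 3.00 TPM (-0.58, adjusted p = 0.00253). FASN (-0.76), DHCR7 (-0.52), SLC25A1 (-0.50), MSMO1 (-0.48), FDPS (-0.47), MVD (-0.41), MVK (-0.40) and FDFT1 (-0.38) fell as well, as did the elongation enzyme TECR (-0.39) and the sterol exporter ABCG1 (-0.47), while ELOVL7 (0.43) and MBTPS2 (0.36) rose. All 18 genes that were lower with oleate under the inhibitor had negative estimates with DMSO.

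Whether oleate acted differently under the inhibitor was tested as an interaction over the 12 samples of both pairs, and 0 of 13773 genes were called (0.00%), with 1294 (9.40%) at an unadjusted p under 0.05. With 1 sample left out the latter number ranged from 835, without DMSO replicate 2, to 1867, without CAY10566 replicate 2. For SCD the oleate effect with CAY10566 minus that with DMSO was 0.12, with a 95% interval of -0.09 to 0.33, and for INSIG1 it was -0.01 (-0.22 to 0.21). These intervals do not show that the effects are alike; they bound the difference. FDPS (0.17, interval 0.06 to 0.28), FASN (0.30, 0.01 to 0.60) and SLC25A1 (0.19, 0.03 to 0.34) had unadjusted p under 0.05, with the smaller decrease under the inhibitor, and adjusted p of 0.514, 0.526 and 0.526.

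**Figure D3:**
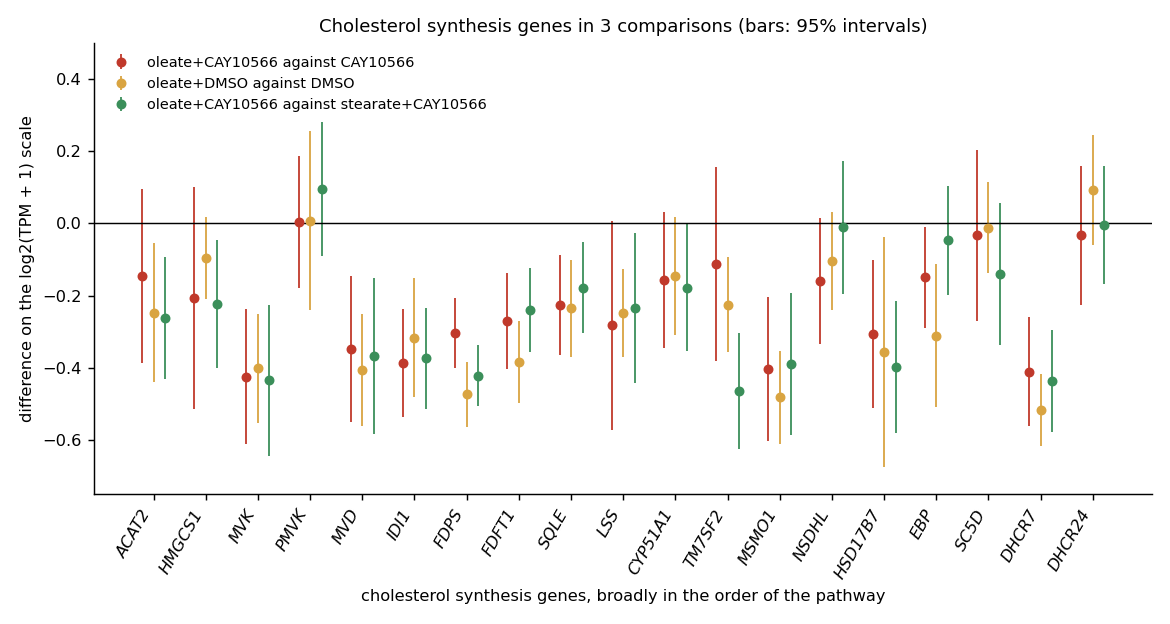
Log2 fold changes (vertical axis, log2(TPM + 1) scale) of 19 of the 20 cholesterol synthesis genes, broadly in pathway order on the horizontal axis; points are estimates, bars 95% intervals and colours 3 comparisons. DHCR7, at -0.41 under the inhibitor, and HMGCS1, at -0.21 with an interval that includes 0, are examples of its genes.

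Oleate was then set against stearate, which has the same chain length but lacks the double bond, at the same dose and time and with the same inhibitor; this single pair of fatty acids was compared. Of 13798 genes 407 were called (2.95%), 333 higher with oleate (2.41%) and 74 lower (0.536%). With 1 sample left out 144 to 331 were called, the fewest without oleate+CAY10566 replicate 2, and with size factors the calls for oleate+CAY10566 against stearate+CAY10566 were 239 higher and 110 lower. The comparison shares its oleate+CAY10566 samples with the first one, so both sets of values are given side by side. Of the 55 sterol and fatty acid genes 11 were lower with oleate than with stearate and 0 higher. SCD had 189.04, 188.36 and 206.39 TPM in the stearate+CAY10566 samples (-0.70, adjusted p = 0.00114), and INSIG1 had 60.48, 60 and 65.7 TPM (-0.49, adjusted p = 0.00364). The SCD values with stearate lay within the range of the CAY10566 controls, and 2 of the INSIG1 values lay just below it. DHCR7 (-0.44), MVK (-0.44), FDPS (-0.42), HSD17B7 (-0.40), MSMO1 (-0.39), IDI1 (-0.37) and ME1 (-0.41) were also lower with oleate, as were TM7SF2, a sterol reductase (-0.46), and STARD4, a sterol carrier (-0.43). The last pair differed by -0.11 and -0.22 from CAY10566 alone, with groups that overlapped.

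Genes that store, take up or burn fatty acids are given by their counts at an unadjusted p under 0.05. Among 28 tested PPAR targets and fatty acid oxidation genes 1 was higher and 0 lower, against 6.06% and 1.50% of all genes; after rescaling 0 were higher and 3 lower (2.60% and 3.88%), and 3 were higher and 0 lower without CAY10566 replicate 3 (17.8% and 2.47%). CPT1A, which imports acyl groups into mitochondria, had 7.54, 9.75 and 12.76 TPM in the controls and 14.42, 13.37 and 11 TPM with oleate; the groups overlapped through CAY10566 replicate 3 (0.36, interval -0.05 to 0.77), and without it the estimate was 0.53 (adjusted p = 0.147). With DMSO, CPT1A rose with oleate (0.37, adjusted p = 0.0134). Among 24 triglyceride and lipid droplet genes 1 was higher, the acyltransferase AGPAT3 at 0.22, and 1 lower, the phosphatidate phosphatase LPIN1 at -0.31, whose estimate was -0.15 without CAY10566 replicate 3. Of 14 uptake and acyl-CoA synthetase genes ACSL5 was higher at 0.21 and the acyl-CoA binding protein DBI lower at -0.14, and of 28 phospholipid genes 0 passed that limit in either direction. Ceramide and sphingolipid genes had 2 of 23 higher, CERS5 and UGCG. With CAY10566 replicate 3 left out, ceramide genes had 6 higher and phospholipid genes 2, triglyceride genes 3 higher and 2 lower, and uptake genes 2 higher and 1 lower. After rescaling triglyceride genes had 0 higher and 2 lower, uptake genes 0 and 1, phospholipid genes 0 and 0, and ceramide genes 1 and 0. UGCG, which makes glucosylceramide, had 70.44, 67.72 and 77.24 TPM against 92.71, 87.62 and 81.32 TPM, and was at 45.54, 44.6 and 43.95 TPM with stearate (0.95 above stearate, adjusted p = 0.000476).

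The unfolded protein response (UPR), the ER stress program that the study follows, is given first by its named genes. The western blots of the study measured proteins, whereas TPM per gene shows neither transcript splicing nor protein processing. DDIT3, which encodes the stress factor CHOP, had 137.32, 135.93 and 129.44 TPM in the controls and 129.52, 131.3 and 130.03 TPM with oleate, a difference of -0.04 with a 95% interval of -0.15 to 0.07 (adjusted p = 0.768). The groups overlapped only through CAY10566 replicate 3; without it every oleate sample was below both controls (-0.07, interval -0.17 to 0.03). ATF4, the factor above it, had 527.2, 512.19 and 501.66 TPM against 501.42, 539.06 and 516.69 TPM (0.01, interval -0.09 to 0.12). Its groups overlapped with and without that sample. ERN1, which encodes the sensor IRE1, had 15.01, 15.07 and 21.37 TPM against 20.23, 19.9 and 16.31 TPM (0.14, interval -0.20 to 0.48). Without CAY10566 replicate 3, its highest control, the ERN1 groups did not overlap and the estimate was 0.30 (0.04 to 0.56, adjusted p = 0.201), and with DMSO ERN1 rose with oleate (0.48, adjusted p = 0.00565). The other sensors gave 0.06 for EIF2AK3 (interval -0.19 to 0.31) and 0.08 for ATF6 (-0.16 to 0.31), and XBP1, the IRE1 target, gave 0.05 (-0.07 to 0.17).

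Of the 3 arms, 3 of 36 PERK-ATF4 genes, 3 of 28 IRE1-XBP1 genes and 4 of 20 ATF6 genes were higher at an unadjusted p under 0.05 and 0 were lower, against 6.06% and 1.50% of all genes. The medians were 0.06, 0.05 and 0.11, and -0.01, -0.02 and 0.04 after rescaling, so the direction of the first pair of arms depends on the scale. The ATF6 genes were the chaperones HSP90B1 (0.12) and CALR (0.14), HSPA13 (0.20) and MANF (0.27), a secreted ER stress protein with 80.62, 81.48 and 73.17 TPM against 84.91, 97.31 and 101.71 TPM. After rescaling, the ATF6 arm had 0 higher and 1 lower, the IRE1-XBP1 arm 0 higher and 3 lower and the PERK-ATF4 arm 1 higher and 1 lower, against 2.60% and 3.88% of all genes. In the 5 samples without CAY10566 replicate 3, the PERK-ATF4 arm had 8 higher and 1 lower, the IRE1-XBP1 arm 4 and 1, and the ATF6 arm 9 and 0, against 17.8% and 2.47%. STC2, a secreted glycoprotein of the PERK-ATF4 list, had 88.86, 87.48 and 110.19 TPM against 120.59, 118.19 and 117.19 TPM, with CAY10566 replicate 3 between the other controls and the oleate samples (0.32, adjusted p = 0.613; without it 0.42, adjusted p = 0.0771). Against stearate, at 65.95, 73.37 and 77.04 TPM, it was higher by 0.71 (adjusted p = 0.00114). CHAC1, a glutathione-degrading ATF4 target, and DNAJB9, an ER cochaperone, were lower with oleate than with stearate (-0.51 and -0.60, adjusted p = 0.00431 and 0.0288), while against CAY10566 alone they differed by 0.02 and -0.10. DDIT3 and ATF4 were also lower than with stearate (-0.24 and -0.21, adjusted p = 0.0138 and 0.0236), below the fold change limit.

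Apoptosis and DNA damage genes gave the following. H2AX, the histone marked at double-strand breaks, had 94.6 ± 5.43 against 90.5 ± 5.21 TPM (-0.06, interval -0.22 to 0.09). The study measured γH2AX, the phosphorylated protein, which TPM does not show. Of 29 apoptosis genes 4 were higher at an unadjusted p under 0.05, PMAIP1, BIK and BIRC3 among them, of 23 p53 targets 1, AEN, and of 34 break repair genes 4, BRCA1, ATR, MDC1 and RAD51B; 0 were lower in the 3 lists, against 6.06% higher and 1.50% lower among all genes. After rescaling (2.60% and 3.88%) apoptosis had 1 higher, p53 targets 1 lower and 0 higher, and break repair 3 higher. Leaving out CAY10566 replicate 3 (17.8% and 2.47%), 6 apoptosis genes, 2 p53 targets and 8 break repair genes were higher and 0 lower. RAD51B had 5.87, 8.91 and 10.03 TPM against 16.63, 15.53 and 15.52 TPM (0.89, adjusted p = 0.495), and with DMSO it rose by 0.66 with oleate (adjusted p = 0.00431). MDC1, a scaffold of the break response, was high in oleate replicates 1 and 2, at 37.53 and 40.44 TPM, while replicate 3 at 22.96 TPM lay within the controls, at 19.33 to 24.62 TPM.

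**Figure D4:**
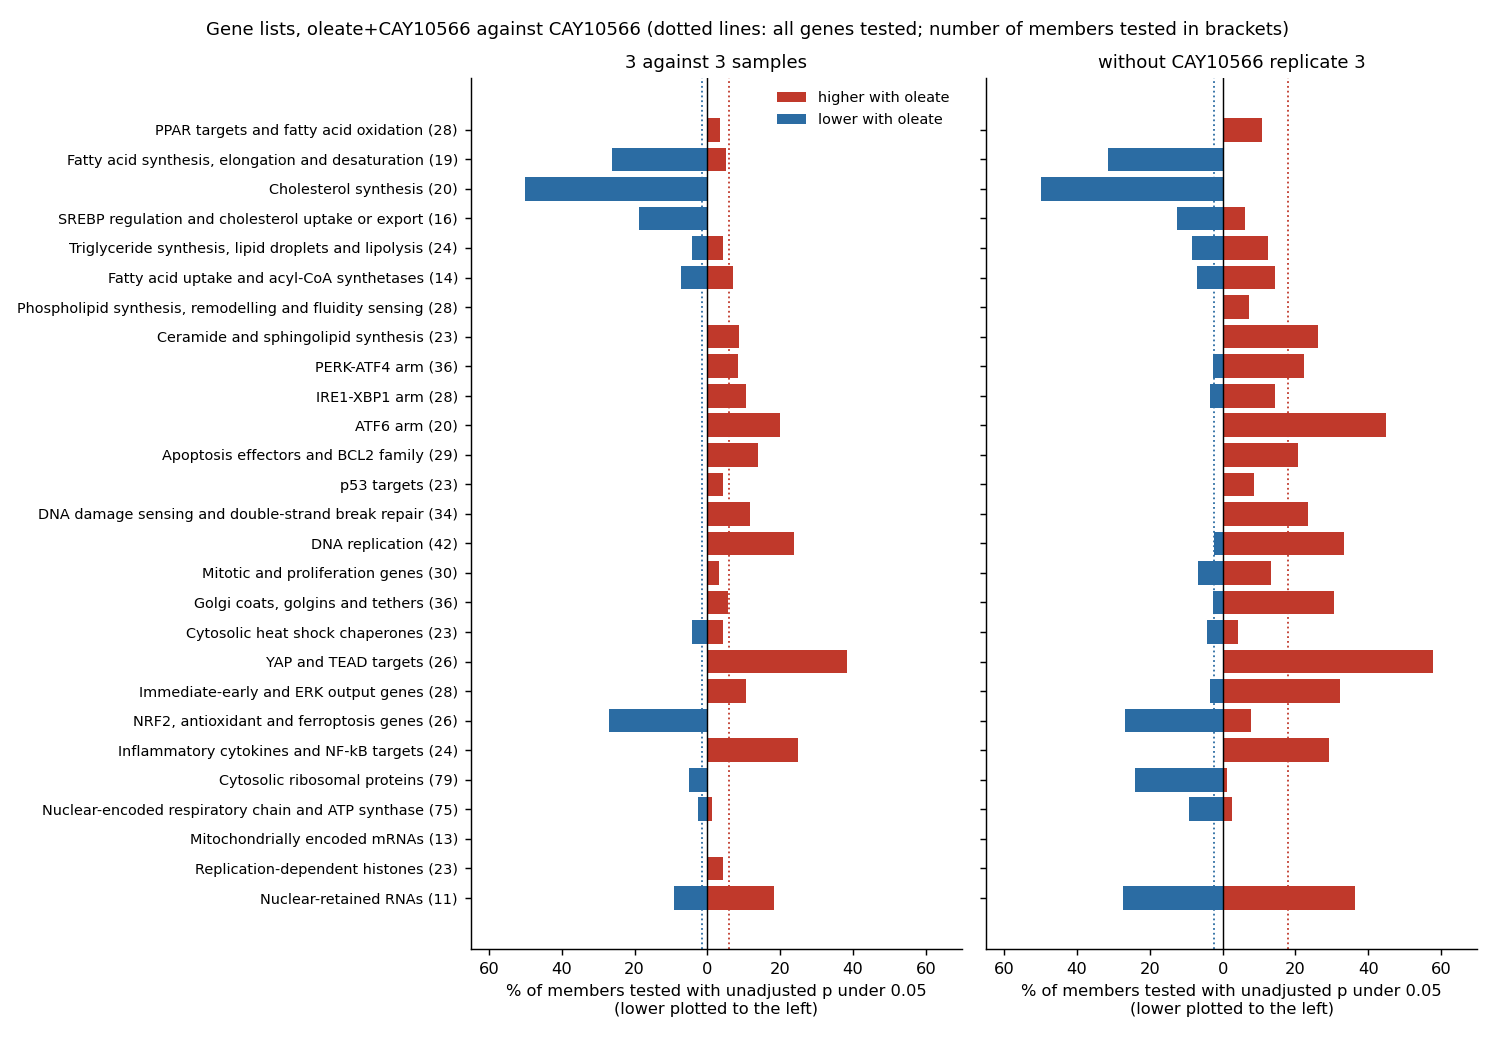
Share of tested members (horizontal axis, %) of 27 gene lists with an unadjusted p under 0.05, higher with oleate to the right and lower to the left, in all 6 samples (left panel) and without CAY10566 replicate 3 (right panel); dotted lines are the shares among all genes, 6.06% higher and 1.50% lower on the left panel, 17.8% and 2.47% on the right. Cholesterol synthesis has the longest bar to the left in both panels, 10 of 20 genes in each, and YAP and TEAD targets the longest to the right, 10 and 15 of 26.

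The list with the largest share of higher genes was that of YAP and TEAD targets, genes of the growth-control pathway that responds to cell contact and tension. Of 26 tested 10 were higher and 0 lower at an unadjusted p under 0.05, against 6.06% of all genes, with a median of 0.17. There were 15 higher without CAY10566 replicate 3 (background 17.8%). After rescaling 4 were higher and 1 lower (2.60% and 3.88% of all genes), with a median of 0.10. CRIM1, a membrane protein that binds growth factors, had 64.74, 66.11 and 86.02 TPM in the controls and 92.64, 95.15 and 86.07 TPM with oleate, where the highest control and the lowest oleate sample nearly met. ANKRD1, a classical YAP target, had 74.86, 80.17 and 78.08 TPM against 93.82, 101.8 and 88.93 TPM (0.28 ± 0.06), and F3, tissue factor, had 384.22, 375.47 and 387.6 TPM against 426.44, 456.8 and 420.89 TPM (0.18 ± 0.05). With DMSO 10 members rose with oleate, as did 13.6% of all genes. In the interaction, the oleate effect with CAY10566 minus that with DMSO, 0 of the 26 were called. There 6 were lower and 0 higher at an unadjusted p under 0.05, against 921 and 373 of 13773 genes. The median was -0.16, against -0.05 over all genes. Against stearate 11 were higher (background 2.41%): F3, at 133 ± 3.67 TPM with stearate, differed by 1.70 (adjusted p = 2.69e-06), DKK1 by 1.56 (adjusted p = 0.0124) and TGFB2 by 0.89 (adjusted p = 0.00513). ANKRD1 had 38.58, 37.7 and 36.97 TPM with stearate, all below every oleate sample (adjusted p = 0.00012).

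DNA replication genes had 10 of 42 higher and 0 lower at an unadjusted p under 0.05 (6.06% and 1.50% of all genes), with a median of 0.13, and 5 higher with a median of 0.06 after rescaling (background 2.60%). There were 14 higher and 1 lower without CAY10566 replicate 3, against 17.8% and 2.47% of all genes. PCNA, the sliding clamp, had 90.72, 84.4 and 83.01 TPM against 102.13, 105.32 and 97.08 TPM (0.24 ± 0.06, adjusted p = 0.613). GINS4, of the replicative helicase, differed by 0.49 and POLA1, the catalytic subunit of primase-polymerase, by 0.36. Against stearate 0 of the 42 were called (2.95% of all genes), PCNA differing by -0.02. Mitotic genes had 1 of 30 higher, MYC at 0.13, and 4 higher and 2 lower without CAY10566 replicate 3; after rescaling 0 passed in either direction and the median turned from 0.04 to -0.03.

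Genes of the NRF2 antioxidant and iron program had more lower members than all genes. Of 26 tested 7 were lower and 0 higher at an unadjusted p under 0.05, against 1.50% lower among all genes, and 7 were lower and 2 higher without CAY10566 replicate 3 (2.47% and 17.8% of all genes). HMOX1, heme oxygenase, had 57.19, 56.51 and 55.75 TPM against 47.86, 47.75 and 47.8 TPM (-0.24 ± 0.05, adjusted p = 0.613), and fell with oleate in DMSO (-0.33, adjusted p = 0.00679). It was the 1 member that fell there, while SLC7A11 (0.50), TXNRD1 (0.38) and TFRC (0.34) rose, against 0.857% and 13.6% of all genes. FTH1, the ferritin heavy chain, had 13876.73, 13694.75 and 13760.56 TPM against 12364.03, 12407.24 and 12634.99 TPM (-0.14 ± 0.03, adjusted p = 0.499). Both genes varied little within groups, which did not overlap. PGD and TKT of the pentose phosphate pathway (-0.15 and -0.10), AKR1B10 (-0.29) and ME1 (-0.24), which the fatty acid list also holds, were among the others. The NRF2 targets NQO1, TXNRD1 and GCLM of the same list differed by 0.01, 0.19 and 0.00, with overlapping groups. Against stearate 5 members were lower (0.536% of all genes), HMOX1, SRXN1, ME1 and OSGIN1 among them (HMOX1 by -0.46, adjusted p = 0.00197).

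**Figure D5:**
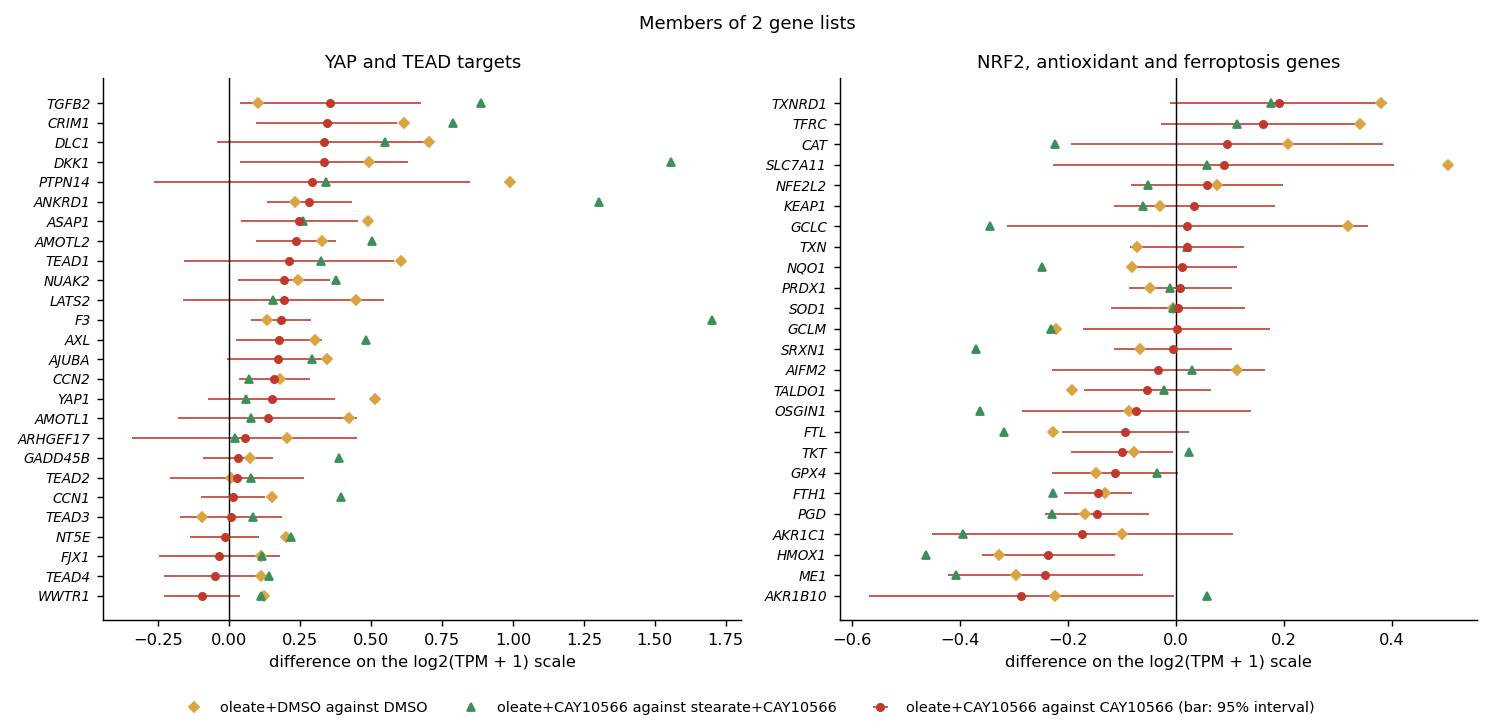
Log2 fold changes (horizontal axis, log2(TPM + 1) scale) of the 26 tested YAP and TEAD targets and 25 of the 26 tested NRF2, antioxidant and ferroptosis genes; circles with 95% intervals are oleate+CAY10566 against CAY10566, diamonds oleate+DMSO against DMSO and triangles oleate+CAY10566 against stearate+CAY10566. F3, at 0.18 against CAY10566 and 1.70 against stearate+CAY10566, is the widest case.

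The remaining lists are given by their counts at an unadjusted p under 0.05, to be read against 6.06% higher and 1.50% lower among all genes, and 2.60% and 3.88% after rescaling. Cytokine and NF-kB genes had 6 of 24 higher, led by TNFAIP3, an inhibitor of NF-kB, with 28.45, 28.27 and 36.87 TPM against 39.35, 45.64 and 37.3 TPM (0.38, adjusted p = 0.632), and immediate-early genes had 3 of 28 higher. After rescaling cytokine genes had 3 higher and 2 lower and immediate-early genes 1 higher and 3 lower. EGR1, an early growth response factor, had 18.04, 18.46 and 19.19 TPM against 21.38, 23.92 and 22.33 TPM, and lay below stearate, at 38.3 ± 2.13 TPM (-0.74, adjusted p = 0.00167). Golgi coat and tether genes had 2 of 36 higher, heat shock chaperones 1 higher and 1 lower of 23, respiratory chain genes 1 higher and 2 lower of 75, histones 1 higher of 23 and nuclear-retained RNAs 2 higher and 1 lower of 11. After rescaling heat shock chaperones had 0 higher and 4 lower, respiratory chain genes 0 and 4, nuclear-retained RNAs 1 and 2, and Golgi genes 1 and 0. Without CAY10566 replicate 3 Golgi genes had 11 higher and 1 lower, immediate-early genes 9 and 1, cytokine genes 7 and 0, heat shock chaperones 1 and 1, respiratory chain genes 2 and 7, histones 0 and 0, and nuclear-retained RNAs 4 and 3, against 17.8% and 2.47% of all genes. Cytosolic ribosomal protein genes had 4 lower of 79, and 19 lower and 1 higher without CAY10566 replicate 3 (2.47% and 17.8% of all genes), whose ribosomal protein share of all TPM was 23.7%, against 24.6% and 24.9% in the other controls. The part of transcript length and of this share in the counts was not tested. All 13 mitochondrially encoded mRNAs had negative estimates, with a median of -0.12, and 0 passed an unadjusted p under 0.05; their share of all TPM ranged from 5.27% to 5.95% in the controls and from 4.33% to 5.98% with oleate.

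Ranked by size, the differences of genes with a mean of at least 5 TPM and separated groups were as follows. The largest higher values belonged to SCARNA16, TMEM167AP2, BARD1, ARHGAP33, RAD51B, CASC19, PAPOLG and FOXP4-AS1. SCARNA16, a small RNA, had 0, 0 and 2.23 TPM against 19.1, 2.43 and 6.38 TPM, and reached the mean of 5 TPM only through the oleate samples, mostly the first. TMEM167AP2 had a control mean under 5 TPM and also reached that limit only through the oleate samples. BARD1, the partner of BRCA1, had 5.46, 6.67 and 9.45 TPM against 24.22, 9.98 and 15.87 TPM, with the oleate samples spread widely. PAPOLG had 8.21, 7.43 and 8.62 TPM against 13.73, 13.97 and 12.89 TPM, a narrow spread (0.68 ± 0.09, adjusted p = 0.237). The largest lower values belonged to RPS27P4, SCIRT, SCD, INSIG1, UBE2SP1, MT1X, SLC38A4-AS1 and FASN, 3 of them sterol and fatty acid genes. RPS27P4, UBE2SP1 and SLC38A4-AS1 had means under 5 TPM with oleate, and reached the mean of 5 TPM only through the controls. SCIRT, a long noncoding RNA, had 12.85, 14.69 and 11.62 TPM against 7.36, 5.26 and 7.58 TPM (-0.87 ± 0.15, adjusted p = 0.349), and it fell with oleate in DMSO (-0.97, adjusted p = 0.00723) and against stearate (-0.71, adjusted p = 0.0233). MT1X, a metallothionein, had 42.16, 38.28 and 46.09 TPM against 27.57, 33.08 and 29.55 TPM. RPS27P4, TMEM167AP2 and UBE2SP1 are pseudogenes and MT1X has close relatives, so their reads may be split with near copies.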

How the data were processed

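RNA of 18 OVCAR5 samples was sequenced, 3 for each combination of fatty acid (none, stearate or oleate) and CAY10566 or DMSO. The authors trimmed 100-base paired reads of stranded libraries with Trim Galore, aligned them to GRCh38 with STAR 2.7.1a and quantified genes with RSEM, and the deposited table holds TPM per gene. TPM keeps no depth, so precision comes only from the spread between replicates. Of 60483 genes listed, 56321 (93.1%) had a symbol; 1 line naming no gene was left out.

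Values were tested as log2(TPM + 1) with limma 3.58.1 (lmFit, eBayes with trend, R 4.3.3), for genes with a mean of at least 1 TPM over the samples compared, with calls made at a Benjamini-Hochberg adjusted p under 0.05 and an absolute log2 fold change over 0.32. Figures were drawn with matplotlib 3.10.9. Coordinates and lengths are those of GENCODE release 44 on GRCh38. The script was checked on simulated data. The alternatives were size factors, a pseudocount of 0.1, other filters, no variance trend, removal of length and GC trends, a replicate block, a model of all 18 samples and leaving out each sample.

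The samples, the 27 gene lists and the rules were chosen with earlier results of these data known, and the lists support nothing independently. Named genes were every called gene, the 8 largest differences in each direction with separated groups and a mean of at least 5 TPM, genes whose products the study names, the 3 largest differences in each of 8 lipid lists and the 2 largest in each other list. Other genes were chosen after their values were seen, and a few genes are not reported here.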

Additional observations from a re-analysis of the deposited data

How the results depend on the processing

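For oleate+CAY10566 against CAY10566, the 0 calls became 2 with size factors (SCD and INSIG1) and 13 in the 6-condition model of 18 samples, and lay between 0 and 3 when a single sample was left out; genes at an unadjusted p under 0.05 then ranged from 599 to 2793, the highest without CAY10566 replicate 3. The 3 calls without CAY10566 replicate 3 became 0 with no filter, 0 with a mean of at least 5 TPM and 400 in the 18-sample model (375 higher, 25 lower). The interaction gave 1 call with a pseudocount of 0.1, 4 with no filter, and 0 to 1 with a sample left out. The comparison oleate+DMSO against DMSO went from 1984 calls to 1200 with size factors (824 higher, 376 lower), 1313 without length and GC trends and 1297 to 2094 with a sample left out, the lowest without DMSO replicate 2. Oleate against stearate went from 407 calls to 212 with no filter, 198 without a variance trend and 144 to 331 with a sample left out, the lowest without oleate+CAY10566 replicate 2; size factors split its calls into 239 higher and 110 lower.

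The 18 sterol and fatty acid genes at an unadjusted p under 0.05 became 30 with size factors. Signs turned for DDIT3 (0.0084) and H2AX (0.016) without length and GC trends; with size factors ATF4 (-0.058), XBP1 (-0.023) and EIF2AK3 (-0.0043); and with a sample left out ATF4 (-0.0023 without CAY10566 replicate 3, range -0.013 to 0.039), EIF2AK3 (range -0.0013 to 0.132) and SLC27A3 (0.087 without CAY10566 replicate 1, range -0.318 to 0.087). These were 9 of 1109 fits of the named genes, and in the others the sign was kept. The cause of these shifts was not tested.

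Same-numbered samples did not deviate together (correlations of -0.051, 0.033 and -0.084), so the numbers were not taken to pair the samples. With a replicate block the 3 calls without CAY10566 replicate 3 became 0 and the 407 against stearate became 192.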
